A study of Mus musculus with 6 samples.

Results

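The 9 genes of collagen folding and cross-linking *Serpinh1*, *Lox*, *Loxl1*, *Loxl2*, *Loxl3*, *Plod1*, *Plod2*, *P4ha1* and *Pcolce* were followed in single-cell RNA sequencing of 6 murine rhabdoid tumors. They are 9 of 16557 genes listed in at least 1 tumor's table, and were chosen by name, with their UMIs (unique molecular identifiers, the counted transcripts) in tumor and other cells already known, so that contrast describes them and tests nothing. The tumors arose in *Smarcb1* fl/fl mice, in which a tamoxifen-inducible Cre recombinase removes the SWI/SNF subunit *Smarcb1* after 50 mg/kg tamoxifen at 6.5 days post coitum. The 3 MYC spinal tumors (spinal 1, 2 and 3, from Rosa26-cre mice, aged 19, 26 and 17 weeks) were compared with 3 extracranial tumors, or eRT. The eRT were a gland tumor of a Rosa26-cre mouse (eRT 1, 17 weeks by its label), and a jaw and a shoulder tumor of Sox2-cre mice (eRT 2, 29 weeks, and eRT 3, 22 weeks). The Rosa26 promoter is active in all tissues and Sox2 in early embryonic and stem cells, and subtype and mouse model cannot be fully told apart. Viable cells were sorted, and each tumor is 1 mouse.

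Fibrillar collagen is made in steps, and these genes serve different ones. In the endoplasmic reticulum, prolyl 4-hydroxylase, whose catalytic subunit *P4ha1* encodes, gives the triple helix its thermal stability, the lysyl hydroxylases of *Plod1* and *Plod2* prepare helical and telopeptide lysines for cross-links, and HSP47, the product of *Serpinh1*, is a chaperone devoted to procollagen. Outside the cell, the enhancer protein of *Pcolce* speeds removal of the C-propeptide, and the lysyl oxidases of *Lox*, *Loxl1*, *Loxl2* and *Loxl3* start covalent cross-links in collagen and elastin. Fibroblasts and other mesenchymal cells use the whole set. Prolyl and lysyl hydroxylases need oxygen, and several of these genes are known targets of hypoxia-inducible factor.

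On GRCm38, *Serpinh1* lies on chromosome 7 from 99345376 to 99353239, *P4ha1* on chromosome 10 from 59323296 to 59373304, *Plod1* on chromosome 4 from 147909753 to 147936767 and *Plod2* on chromosome 9 from 92542223 to 92608428. *Loxl1* lies on chromosome 9 from 58287738 to 58313186, *Loxl2* on chromosome 14 from 69609068 to 69695834, *Loxl3* on chromosome 6 from 83034173 to 83052562 and *Pcolce* on chromosome 5 from 137605103 to 137613784. Promoter windows of 300 bases (250 before and 50 after the gene's start) were found for 4 of the 9 genes in the RefSeq table of GRCm38.p6. Those of *P4ha1*, the member with the largest difference by hypoxia score, and of *Serpinh1*, which differed little by it, are shown, with the hypoxia response element core (ACGTG or GCGTG, on either strand) in capitals.
P4ha1, chr10:59323046-59323345, plus strand: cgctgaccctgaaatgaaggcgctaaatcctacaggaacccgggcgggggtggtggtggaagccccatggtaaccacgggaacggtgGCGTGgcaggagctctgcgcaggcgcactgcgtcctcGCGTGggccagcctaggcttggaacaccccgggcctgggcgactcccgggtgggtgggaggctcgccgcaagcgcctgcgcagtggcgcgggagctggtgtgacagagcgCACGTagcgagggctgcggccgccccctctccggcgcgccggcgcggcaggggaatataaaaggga
Serpinh1, chr7:99353190-99353489, minus strand: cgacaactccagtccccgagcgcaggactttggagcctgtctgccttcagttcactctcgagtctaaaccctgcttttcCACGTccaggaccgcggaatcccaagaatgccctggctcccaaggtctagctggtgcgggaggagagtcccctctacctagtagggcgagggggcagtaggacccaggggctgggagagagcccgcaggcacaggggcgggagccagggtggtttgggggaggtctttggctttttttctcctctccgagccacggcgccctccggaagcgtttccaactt
The core occurred at 3 places in the *P4ha1* window and at 1 in that of *Serpinh1*, and the windows of *Plod1* and *Pcolce*, not shown, held 2 and 1. At least 1 match was found in 43.8% of 32851 promoter windows of this length, so a match describes the letters and no more.

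Tumor cells were taken as clusters that held under 0.25 of the *Smarcb1* UMIs immune-like cells would give. Their *Smarcb1* level was 3.50 CPM (UMI counts scaled to the same total in every sum of cells) in spinal 1 and 3.48 CPM in spinal 3, and 6.41, 3.21 and 2.00 CPM in eRT 1, 2 and 3. In their immune-like cells *Smarcb1* stood at 58.9, 39.7, 53.9, 33.9 and 51.5 CPM, in the same order. This left 108 tumor cells in spinal 1, 1766 in spinal 3, 68 in eRT 1, 202 in eRT 2 and 624 in eRT 3, of 22163 cells kept from 22681, with 468008 to 8896535 UMIs per tumor. In spinal 2, which had the lowest median depth (916 UMIs per cell), 341 cells fell in a tumor cluster but had 9 *Smarcb1* UMIs where 7.32 were expected, and none was counted as tumor. At a clustering resolution of 1.6, 18 of the cells of spinal 2 joined tumor clusters. They had no *Smarcb1* UMI among 46928 UMIs, which allows up to 3 counts, or 63.9 CPM. This limit lies above the 21.8 CPM of the immune-like cells of spinal 2, so it cannot show a loss of *Smarcb1*. The values of the 18 cells are given apart. The cell names hold no barcodes to compare between libraries, and 0 cell profiles were identical between tables.

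The tumor clusters had markers of other cell types. In eRT, clusters 2 and 11 carried 5 and 3 fibroblast markers and cluster 18, with 36 cells of eRT 1 and 5 of eRT 2, carried 4 epithelial markers. The 13 cells of eRT 1 in cluster 11 had 2 *Smarcb1* UMIs where 3.27 were expected, too few to check. In MYC spinal tumors, cluster 21, all from spinal 3, carried 3 neuron markers and clusters 3, 8 and 20 took no name. A fibroblast-like cluster of 85 eRT cells stood at 0.298 of the expected *Smarcb1* level, just above the limit, and was kept among the other cells. Whether these are host fibroblasts or tumor cells was not tested.

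*Serpinh1* was high in the tumor cells of every tumor that had them. In tumor cells its level was 1294 CPM in spinal 1 and 481 CPM in spinal 3, against 250 CPM in eRT 1, 313 CPM in eRT 2 and 472 CPM in eRT 3. The other cells of these tumors held 1.22, 16.4, 0.818, 6.15 and 25.5 CPM, so the ranges lay far apart. A *Serpinh1* UMI was found in 94 of 108 tumor cells of spinal 1 (87.0%, exact 95% interval 79.2 to 92.7%), 1325 of 1766 in spinal 3 (75.0%), 36 of 68 in eRT 1 (52.9%), 61 of 202 in eRT 2 (30.2%) and 490 of 624 in eRT 3 (78.5%). Of its UMIs in the 5 tumors, 92.9% lay in tumor cells. The mean was 562 ± 421 CPM in tumor cells and 10.0 ± 10.7 CPM in other cells (SD, n = 5 tumors).

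*Lox*, the founding lysyl oxidase, lies on chromosome 18 from 52516067 to 52529867 in GRCm38. Its tumor-cell level was higher in each eRT than in spinal 1 and 3. Among eRT, tumor cells held 190 CPM in eRT 1, 135 CPM in eRT 2 and 324 CPM in eRT 3. Those of MYC spinal tumors held 21.0 CPM in spinal 1 and 12.2 CPM in spinal 3. In other cells it reached 11.5 CPM in eRT 3, lay between 1.23 and 1.85 CPM in eRT 1, 2 and spinal 3, and had no UMI in spinal 1. *Lox* UMIs were found in 60.7% of the tumor cells of eRT 3, 22.1% in eRT 1 and 16.8% in eRT 2, against 9.26% in spinal 1 and 4.08% in spinal 3.

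The other lysyl oxidases varied from tumor to tumor. *Loxl3* stood at 298 CPM in eRT 3, where 439 of 624 tumor cells (70.4%) had a UMI, at 53.4 CPM in eRT 1, 24.5 CPM in spinal 1 and 4.16 CPM in spinal 3. In eRT 2, 0 of 202 tumor cells had one, which allows a share of cells with a UMI of up to 1.49% and a level of up to 4.81 CPM. *Loxl1*, which is tied to elastic fibers, stood at 36.3 CPM in eRT 1, 17.0 CPM in spinal 3, 15.7 CPM in spinal 1, 8.02 CPM in eRT 2 and 2.996 CPM in eRT 3, and at most 1.79 CPM in other cells. *Loxl2* was barely detected, with 5, 8 and 10 UMIs in tumor cells of eRT 2, 3 and spinal 3 and none in those of eRT 1 and spinal 1. It is not listed in the tables of spinal 1 and 2.

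The lysyl hydroxylases differed in where they were found. *Plod2*, whose product hydroxylates telopeptide lysines, had tumor-cell levels of 31.5 CPM in spinal 1 and 38.8 CPM in spinal 3. The eRT levels were 27.8, 11.2 and 14.6 CPM. Its level in other cells lay between 0.818 and 3.204 CPM, below every tumor-cell value. *Plod1*, which acts on helical lysines, was high in tumor cells of spinal 1 (241 CPM, 54.6% of cells) and eRT 3 (116 CPM, 37.5%) and stood at 40.1 CPM in eRT 2. In eRT 1 and spinal 3 it was lower in tumor cells (51.3 and 21.8 CPM) than in the other cells (78.3 and 24.5 CPM). Over these 5 tumors, 30.5% of *Plod1* UMIs and 83.6% of *Plod2* UMIs lay in tumor cells. Tumor cells were 3.17% to 26.2% of the cells kept from each of them.

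*P4ha1* was found well beyond the tumor cells. In the 5 tumors with tumor cells, its level in other cells was nearly the same, from 41.9 to 49.5 CPM. It was lower in spinal 2, at 11 CPM in the 5731 cells outside the 18 described above. Tumor cells ranged from 35.3 CPM in eRT 3 to 158 CPM in eRT 1. Tumor cells stood above the others in eRT 1, spinal 1 (43.7 against 41.9 CPM) and spinal 3 (92.5 against 42.6 CPM), and below them in eRT 2 (43.3 against 45.2 CPM) and eRT 3. *Pcolce* followed the eRT, with 491 CPM in tumor cells of eRT 1, 48.1 CPM in eRT 2 and 44.3 CPM in eRT 3. The level in spinal 3 was 4.95 CPM, with a UMI in 16 of 1766 cells, and in spinal 1, whose table does not list the gene, it was counted as 0.

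**Figure D1:**
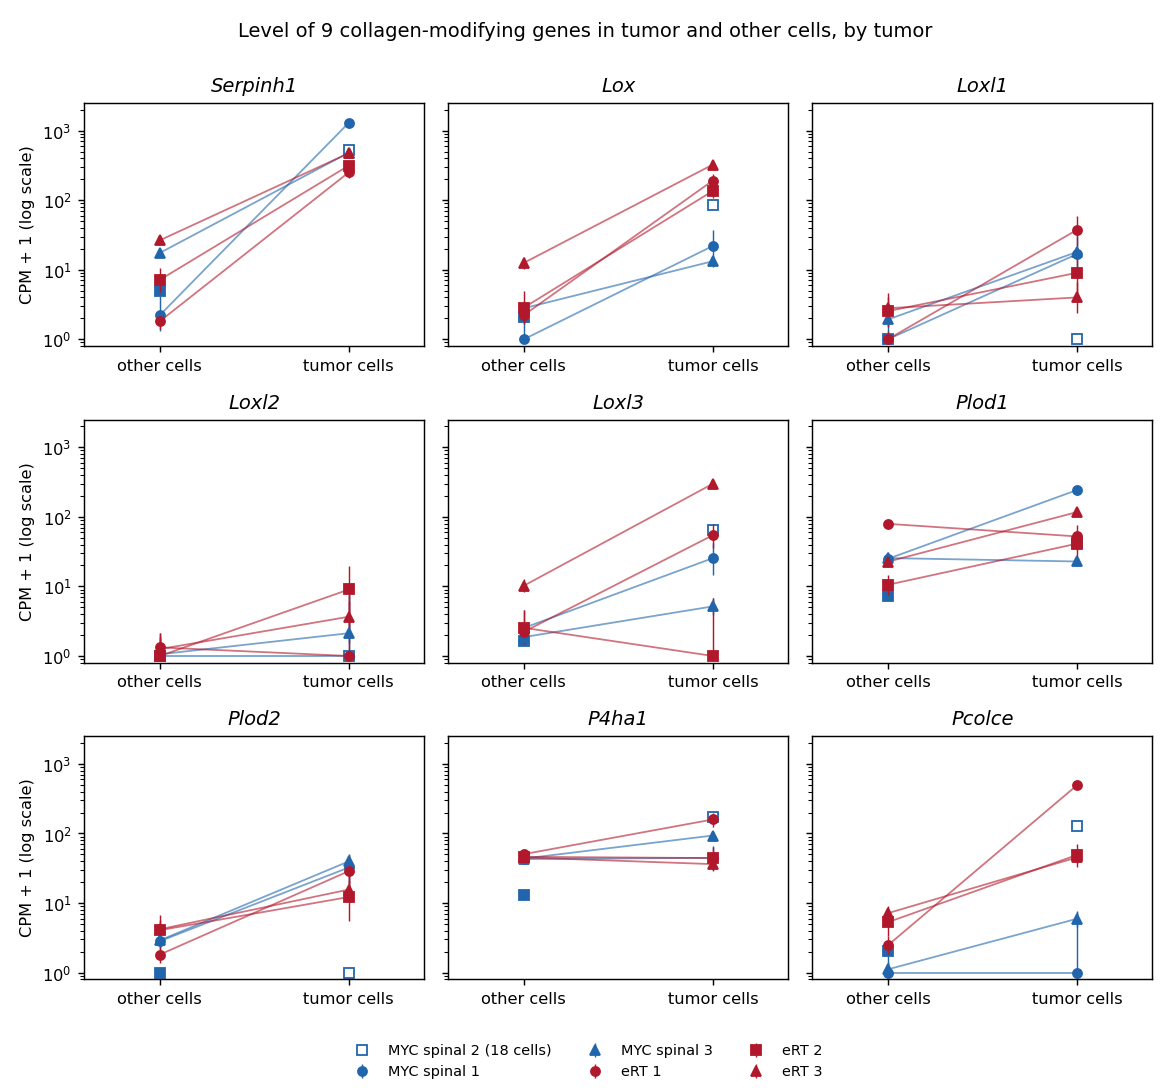
Level of each gene in other and tumor cells of each tumor, as CPM + 1 on a log axis, with MYC spinal tumors in blue and eRT in red. Bars are exact 95% Poisson intervals, lines join the cells of a tumor, and the open blue square is the 18 cells of spinal 2, which its other cells (filled blue square) include. *Serpinh1*, *Lox*, *Loxl1* and *Plod2* are higher in tumor cells in all 5 tumors and *P4ha1* is higher in 3.

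Set side by side, 4 of the 9 genes (*Serpinh1*, *Lox*, *Loxl1* and *Plod2*) were higher in tumor cells than in other cells in each of the 5 tumors, as were 21.3% of 9957 genes tested. In edgeR's quasi-likelihood fit, with the cells paired by tumor, the log2 fold change in tumor cells was 6.15 for *Serpinh1*, 5.21 for *Lox*, 4.69 for *Pcolce*, 3.68 for *Loxl3* and 3.39 for *Plod2*, with standard errors of 0.90, 0.75, 1.02, 0.76 and 0.52. It was 1.30 (standard error 0.62) for *Plod1* and 0.38 (0.34) for *P4ha1*. With the fibroblast-like cells left out of the other cells, an alternative chosen after the clusters were seen, the values were 7.58 for *Serpinh1*, 6.20 for *Lox* and 4.29 for *Plod2*. That fit tested 6 members, where the main fit tested 7. In the main fit *Loxl1* and *Loxl2* were too low for the filter. Of all genes tested, 27.3% passed an adjusted p of 0.05, 13.2% of those tested being higher and 14.1% lower in tumor cells. Since the genes were chosen with this contrast known, these values describe them.

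Depth differed between the kinds of cells: the median tumor cell had 2055.5 to 6141.5 UMIs and the median other cell 1335.5 to 5177. After each cell was thinned to 1000 UMIs, *Serpinh1* UMIs were found in 55.7% and 34.9% of tumor cells of spinal 1 and 3 and in 19.1%, 16.0% and 38.5% of those of eRT 1, 2 and 3. The shares of other cells were at most 1.31%. The thinning left out 2 tumor cells of spinal 1 and 21 of eRT 2, and 80, 435 and 30 other cells of spinal 1, eRT 2 and 3. T cells serve as a kind that should lack *Serpinh1*. No thinned T cell-like cell of spinal 1, eRT 1, 2 or 3 had a UMI, and 4 of 96 did in spinal 3 (4.17%, 1.15 to 10.3%), where the other cells stood at 1.31%. For *P4ha1* the thinned shares were 3.31% to 14.7% in tumor cells, 3.43% to 4.72% in other cells and 0.719% to 3.45% in T cell-like cells, whose median depth was 1136 to 1902 UMIs in these tumors. Averaged over tumors, the thinned difference for *P4ha1* was 3.06 ± 4.32 percentage points (SD, n = 5), within the spread between tumors.

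Among cells outside the tumor clusters, fibroblast-like cells had the highest mean levels of *Serpinh1*, *Lox*, *Loxl1*, *Loxl3*, *Plod2* and *Pcolce*. This did not hold for the means of *P4ha1* and *Plod1*. They were 45.7 and 52.2 CPM in fibroblast-like cells, against 56.7 CPM of *P4ha1* in monocyte-like and 58.7 CPM of *Plod1* in osteoclast-like cells. The *P4ha1* mean covers eRT 2 and 3, and the fibroblast-like cells of eRT 2 had no *P4ha1* UMI. In eRT 3 such cells held 22 *P4ha1*, 14 *Plod1* and 1 *Loxl2* UMIs, against 237 *P4ha1* and 100 *Plod1* UMIs in macrophage-like cells. By level, *P4ha1* and *Plod1* both stood higher in the fibroblast-like than in the macrophage-like cells of eRT 3. In the 77 fibroblast-like cells of eRT 3, *Serpinh1* stood at 739 CPM, *Lox* at 320 CPM, *Pcolce* at 179 CPM, *Loxl3* at 154 CPM, *Plod2* at 99.6 CPM, *P4ha1* at 91.3 CPM, and *Loxl1* and *Plod1* at 58.1 CPM each. *Lox* reached there the level of tumor cells of the same tumor (324 CPM), and *Pcolce* and *Plod2* stood above theirs (44.3 and 14.6 CPM). *Loxl3* stood below (298 CPM). The fibroblast-like cells held 178 of the 199 *Serpinh1* UMIs and 77 of the 90 *Lox* UMIs outside the tumor cells of eRT 3. In eRT 2, 6 such cells had 17 *Serpinh1* and 13 *Pcolce* UMIs, and eRT 2 and 3 were the only tumors with at least 5 of them.

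*P4ha1* and *Plod1* had the highest mean levels of the members in macrophage-like, monocyte-like and osteoclast-like cells, but were not limited to myeloid cells. Mean *P4ha1* was 26.8 CPM in B cell-like cells and 17.4 CPM in neutrophil-like cells, and mean *Plod1* was 9.34 and 5.21 CPM. In spinal 2, monocyte-like cells held 30 and macrophage-like cells 0 of its 79 *P4ha1* UMIs. *P4ha1* stood at 41.3 to 115.5 CPM in the macrophage-like cells of spinal 1 and 3 and the 3 eRT, and at 47.0 to 92.0 CPM in their monocyte-like cells. T cell-like cells of these tumors held 10.1 to 29.9 CPM. *Plod1* stood at 85.4 CPM in the macrophage-like cells of eRT 1, 80.3 CPM in those of spinal 1, 23.2 CPM in spinal 3, 19.6 CPM in eRT 3 and 9.02 CPM in eRT 2. The osteoclast-like cells, the bone-resorbing relatives of macrophages, numbered 543 in eRT 1 and 1581 in spinal 3 and held 70.8 and 26.5 CPM of *Plod1* and 47.5 and 44.3 CPM of *P4ha1*. *Serpinh1* was at 0.475 CPM in the osteoclast-like cells of eRT 1 and at 26.6 CPM in those of spinal 3. In spinal 3 it stood at 39.9 CPM in the T cell-like cells (8 UMIs) and at 3.81 CPM in the macrophage-like cells (13 UMIs), and where the 208 osteoclast-like UMIs came from was not tested.

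**Figure D2:**
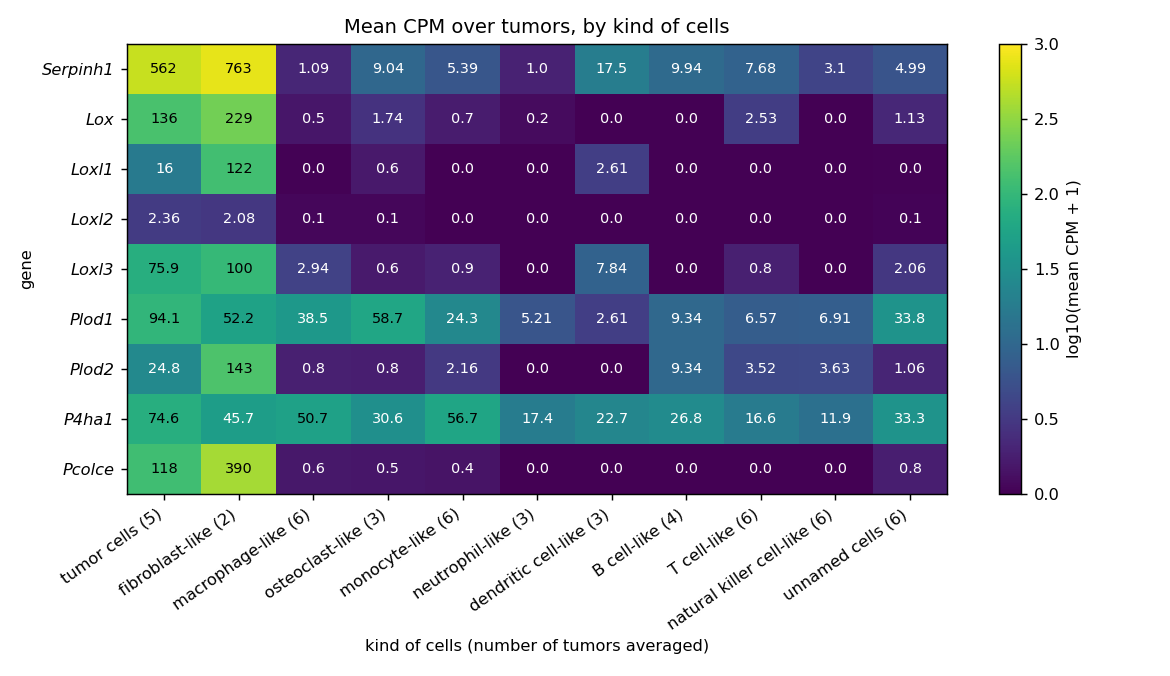
Mean CPM of each gene over the tumors in which a kind of cells had at least 20000 UMIs, with the number of tumors in brackets and color as log10(mean CPM + 1). *Serpinh1*, *Lox*, *Loxl1*, *Loxl3*, *Plod2* and *Pcolce* are highest in the tumor and fibroblast-like columns, and *Loxl2* is low in all. *Plod1* and *P4ha1* extend into the myeloid and, at lower levels than in macrophage-like cells, the lymphoid columns.

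The tumor cells of a tumor were not uniform. In eRT 1, the 19 cells of cluster 2 held 421 CPM of *Lox* (77 of its 89 UMIs) and 131 CPM of *Loxl3*, and the 36 epithelial-like cells of cluster 18 held 44.5 and 4.46 CPM. The same 36 cells held 726 CPM of *Pcolce* and 227 CPM of *P4ha1*, above the 290 and 109 CPM of cluster 2. Cells in cluster 18 thus carried most *Pcolce* UMIs of that tumor's tumor cells (163 of 230), with no *Col1a1* UMI but 57 *Col1a2* and 26 *Col3a1* UMIs (254 and 115.8 CPM). In eRT 2, the 51 cells of cluster 2 held 503 CPM of *Serpinh1* and 268 CPM of *Lox*. The 146 cells of cluster 11 held 74.6 and 14.2 CPM, and *Col1a2* stood at 1083 and 99.4 CPM in these clusters.

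In eRT 3, where 555 cells lay in cluster 2 and 69 in cluster 11, the clusters were closer. *Serpinh1* stood at 494 and 318 CPM, *Lox* at 328 and 289 CPM and *Loxl3* at 314 and 182 CPM. In spinal 3, 74 of the 109 *Lox* UMIs lay in the 94 cells of cluster 21, at 114 CPM, a level near that of eRT 2. The 846 cells of cluster 3 and the 647 of cluster 8 held 7.36 and 1.12 CPM of *Lox*. *Loxl1* went the other way in spinal 3, with 33.0 CPM in cluster 3, 8.77 CPM in cluster 8 and no UMI in clusters 20 and 21. In spinal 1, *Serpinh1* was at 1280 CPM in the 93 cells of cluster 3 and at 1498 CPM in the 10 of cluster 8. As clusters were formed from the expression of the same cells, these differences were not tested.

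**Figure D3:**
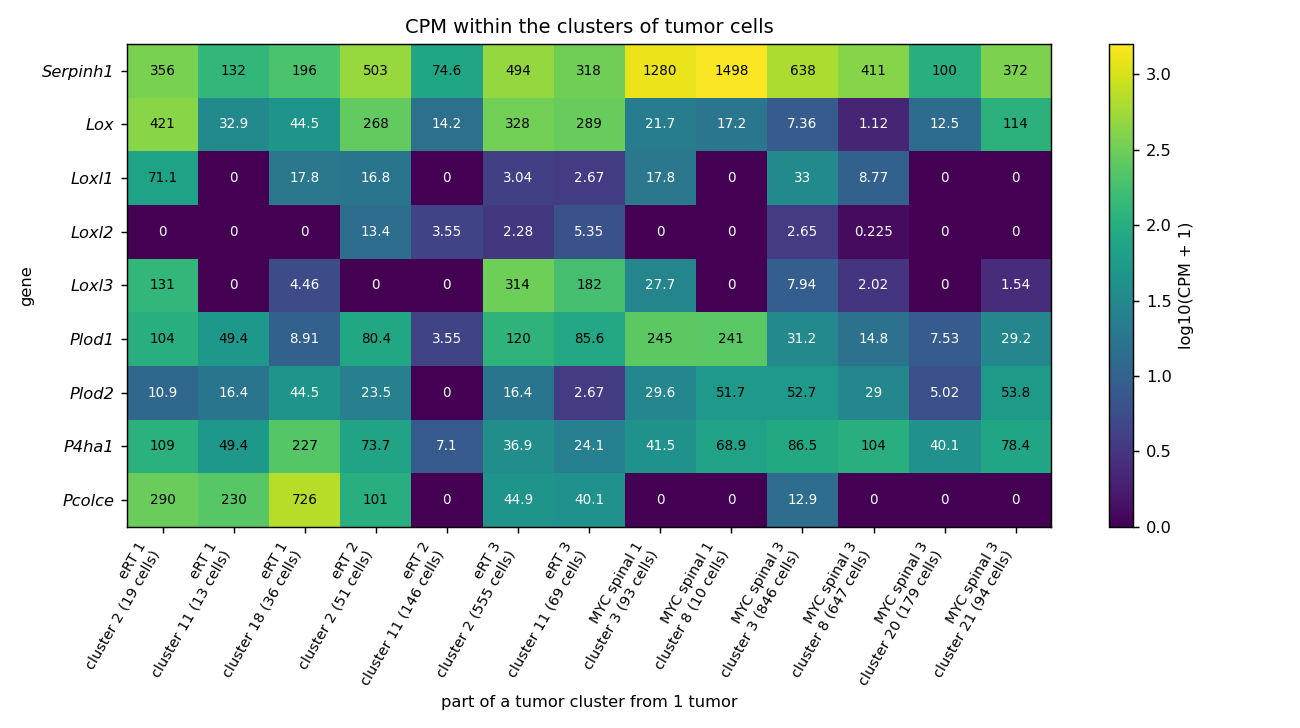
CPM of each gene in the part of a tumor cluster that came from 1 tumor, for parts of at least 10 cells, with color as log10(CPM + 1). *Serpinh1* is present in every part, from 74.6 to 1498 CPM, and *Lox* is at 114 CPM or more in cluster 2 of the 3 eRT, cluster 11 of eRT 3 and cluster 21 of MYC spinal 3.

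Tumor cells of eRT and MYC spinal tumors were compared to ask whether the anatomical subtypes differ in this set. *Lox* and *Pcolce* were higher in each eRT than in either spinal tumor, and *Serpinh1* and *Plod2* were lower in each. Levels that do not overlap between the 3 eRT and the 2 spinal tumors were found for 21.6% of 6366 genes tested, and for 4.41% with higher values in eRT. Most genes without overlap were thus lower in eRT, as 281 of the 1374 were higher. For *Serpinh1* the gap was small, with 472 CPM in eRT 3 against 480.9 CPM in spinal 3. In the edgeR fit, *Lox* was higher in eRT by 4.09 on the log2 scale (standard error 0.52, unadjusted p = 0.000235, adjusted p = 0.345 by edgeR's quasi-likelihood test). *Pcolce* was higher by 5.76 (standard error 1.54, adjusted p = 0.78 in edgeR), and *Loxl3* by 3.64 (standard error 1.97, adjusted p = 1), with eRT values from 0 CPM in eRT 2 to 298 CPM in eRT 3.

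The log2 fold changes of the others were -0.91 for *Serpinh1*, -0.78 for *Plod2*, -0.40 for *Plod1*, -0.03 for *Loxl1* and 0.32 for *P4ha1*. None of the 8 members tested passed, as none of the 6366 genes did (0%). At an unadjusted p under 0.05 there were 305 genes, 2 of them members. DESeq2 called 85 genes (1.34%), among them *Lox* (adjusted p = 5.35e-10) and *Pcolce* (adjusted p = 0.00211). Without TMM factors the median of all genes moved to -0.34 and *Lox* to 3.73.

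The cells of spinal 2 were set beside both. In its 18 cells in tumor clusters at resolution 1.6, *Lox* stood at 85.2 CPM (4 UMIs) and *Pcolce* at 128 CPM (6 UMIs), above the other spinal tumors, with *Serpinh1* at 533 CPM (25 UMIs). With the clustering at this resolution, which also regroups the cells of the other tumors and adds these as a spinal tumor, *Pcolce* overlapped the eRT, and its log2 fold change was 4.84 and that of *Lox* 3.42 (edgeR adjusted p = 0.999 and 0.792). With mouse model as a term, which leaves eRT 1 against the spinal tumors for the subtype, *Lox* was at 3.63 and *Pcolce* at 7.01 (adjusted p = 0.975 for each in edgeR). Leaving out spinal 1 turned the sign of *Plod1* from -0.40 to 1.82 and of *P4ha1* from 0.32 to -0.24.

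The genes that these enzymes act on gave the context. Of the 7 collagen and fibrillin genes tested, all had positive log2 fold changes in eRT, with a median of 0.80 against 0.01 over all genes, and none passed. *Col1a1* tumor-cell levels were 169, 261.5 and 504 CPM for eRT 1 to 3, against 78.7 CPM for spinal 1 and 13.04 CPM for spinal 3 (log2 fold change 3.32, standard error 0.92, edgeR adjusted p = 0.78). *Col1a2* did not split the tumors, with 654, 619 and 1048 CPM in eRT and 1261 and 526 CPM in MYC spinal tumors. The 19 other collagen processing genes tested, of 31 listed, had a median log2 fold change of 0.21, from -0.63 to 1.08, and none passed.

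Hydroxylation of collagen needs oxygen, so the members were compared by a hypoxia score. The score averages listed genes of the hypoxia response, such as *Slc2a1* and *Vegfa*, none of them a member, and within each tumor the 25% of tumor cells with the highest score were set against the rest. *P4ha1* stood at 366 against 101 CPM in eRT 1, 90.0 against 21.3 CPM in eRT 2, 49.8 against 29.98 CPM in eRT 3 and 184 against 64.2 CPM in spinal 3. In spinal 1 it was lower in high-scoring cells, at 32.0 against 48.1 CPM from 5 and 20 UMIs. It was thus higher in 4 of 5 tumors, with a mean log2 ratio of 0.99 ± 0.94 (SD, n = 5). In the edgeR fit *P4ha1* was higher by 1.33 on the log2 scale (standard error 0.23, 2.51 times). Its edgeR adjusted p of 0.0521 missed the threshold, which 3 of 4374 genes (0.0686%) passed.

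Several other settings moved *P4ha1* past that threshold, with log2 fold changes from 1.04 to 1.51. Its adjusted p was 0.0234 in DESeq2, 0.00973 without spinal 1 and 0.923 without spinal 3, and ranged from 3.99e-08 to 1 over the alternatives. High-scoring cells had a median of 3005 UMIs in eRT 2 against 1771 in the rest, and of 4040.5 to 5860 against 4282.5 to 6432 in the other tumors. Cycling cells made up 29.6% to 58.0% of high-scoring cells and 24.7% to 51.3% of the rest. Thinned to 1000 UMIs before scoring, *P4ha1* was at 1.14 (edgeR adjusted p = 0.0321). In G1 cells alone *P4ha1* was at 1.4 (edgeR adjusted p = 0.238). In eRT 1, 37 of its 74 *P4ha1* UMIs lay in the 17 high-scoring cells, 13 of which were of cluster 18. Within cluster 18, a split made after the values were seen, *P4ha1* stood at 418 CPM in these 13 cells (33 UMIs) and at 124 CPM in the other 23 (18 UMIs). In eRT 2, *P4ha1* stood at 73.7 CPM in cluster 2 (22 UMIs) and at 7.1 CPM in cluster 11 (2 UMIs). The median depth of these clusters was 5624 and 1580.5 UMIs. The part of the clusters in the differences of eRT 2, eRT 3 and spinal 3 was not tested.

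*Lox* and *Plod1* were each higher in high-scoring cells in 4 of 5 tumors, but not on average beyond the spread between tumors. The mean log2 ratio of high-scoring cells to the rest was 0.19 ± 0.55 for *Lox* and -0.10 ± 1.01 for *Plod1* (SD, n = 5). *Lox* was lower in spinal 3, at 5.71 against 14.3 CPM, and *Plod1* in eRT 1, at 9.89 against 62.7 CPM. The share of all genes higher in 4 of 5 tumors was not counted. *Plod2*, too low to be tested, stood at 69.2 against 16.4 CPM in eRT 1 and 61.9 against 31.6 CPM in spinal 3, but at 19.2 against 36.1 CPM in spinal 1, from 3 and 15 UMIs. The log2 fold changes were 0.34 for *Plod1*, 0.05 for *Lox*, -0.09 for *Serpinh1* and -0.11 for *Pcolce*, with edgeR adjusted p-values of 0.898 to 0.998. Among the collagens and fibrillin, 6 of 7 genes tested had negative values, with a median of -0.55 against -0.01 for all genes, and none passed. *Col5a2* stood at -0.60 and *Col3a1* at -0.61 (standard errors 0.12 and 0.17, edgeR adjusted p = 0.148 and 0.34). Of 17 other processing genes tested, none passed, 13 were negative and the median was -0.15. Among them *P4hb*, the partner subunit of *P4ha1* in prolyl 4-hydroxylase, was at 0.34 (standard error 0.15, edgeR adjusted p = 0.874).

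Cycling tumor cells, called S or G2M by phase scores, were compared with G1 cells to ask whether the set follows proliferation. All 6 members tested had negative log2 fold changes in the edgeR fit, from -0.65 to -0.19, with a median of -0.35 against -0.03 for all genes. None passed. As mean log2 ratios over the tumors, *Plod1* was at 0.16 ± 1.19 and *P4ha1* at -0.01 ± 0.50 (SD, n = 5). *Lox*, *Pcolce*, *Serpinh1* and *Plod2* were at -0.56 ± 0.72, -0.54 ± 0.81, -0.28 ± 0.40 and -0.24 ± 0.30, each smaller in size than its SD. The threshold was passed by 3.39% of 3985 genes, 2.03% of those tested being higher and 1.36% lower in cycling cells. *Lox* was lowest at -0.65 (standard error 0.18, edgeR adjusted p = 0.0595). Its levels in cycling and G1 cells were 79.8 and 264 CPM in eRT 1, 94.1 and 172 CPM in eRT 2, 289 and 351 CPM in eRT 3 and 8.397 and 14.7 CPM in spinal 3. In spinal 1 they were 26.6 and 19.0 CPM, from 4 and 8 UMIs.

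*Plod2* was at -0.48 and *Pcolce* at -0.54 (edgeR adjusted p = 0.216 and 0.219), *Serpinh1* at -0.22, *Plod1* at -0.21 and *P4ha1* at -0.19. *Loxl1* was lower in cycling cells in each of the 5 tumors but too low to be tested, and 9.51% of genes tested were lower in each. Among the listed genes of collagen processing, 1 of 12 tested passed: *Sec23a*, a COPII coat protein of collagen export, was lower (log2 fold change -0.75, standard error 0.19, edgeR adjusted p = 0.0387). Of the 7 collagens and fibrillin, *Col5a2* passed (-0.62, standard error 0.16, edgeR adjusted p = 0.0444).

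**Figure D4:**
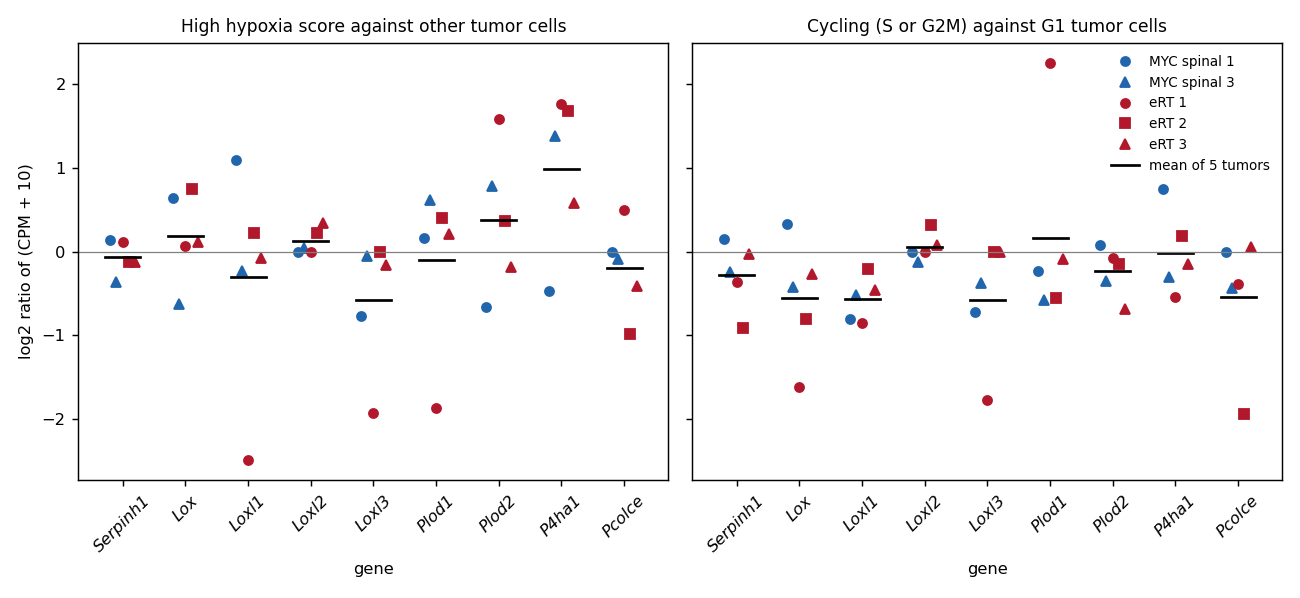
Log2 ratio of (CPM + 10) in each of 5 tumors between tumor cells with a high hypoxia score and the rest, and between cycling and G1 cells, with black bars for the mean. *P4ha1* lies above 0 in 4 of 5 tumors on the left, and *Loxl1* below 0 in all 5 on the right.

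The wider collagen pathway was measured with 31 further genes, 26 of which are listed in at least 1 table. In tumor against other cells, 16 of 21 tested passed the threshold, 14 of them higher and 2 lower, with a median log2 fold change of 2.05. Over all genes tested, 27.3% passed (13.2% higher and 14.1% lower) and the median was -0.00. As tumor clusters were found from the expression of the same cells, this count is a description. The genes that were higher included *Fkbp10* (5.96), a prolyl isomerase partner of HSP47 and lysyl hydroxylase, *P4ha3* (5.30), a further prolyl 4-hydroxylase subunit, *P3h4* (4.79), which works with *Plod1*, *Sparc* (4.54), a collagen-binding matrix protein, and *Bmp1* (3.68), the C-proteinase that *Pcolce* enhances. The lower genes were *Tmem38b* (-1.60), an endoplasmic reticulum cation channel, and *Pepd* (-1.50), the peptidase that recycles proline. *P4hb* (0.49), *Plod3* (-0.43), *Colgalt1* (0.16), *Mia3* (0.01) and *Creb3l1* (1.15) did not pass.

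Over 46 sums of a tumor and a kind of cells, the genes outside the collagen lists whose log2(CPM + 10) varied most like each member were named as a description, since the sums share libraries. *Serpinh1* was most like *Fstl1* and *Gpx8* (Pearson's r = 0.974 and 0.962) and its r with the listed *Col1a2* was 0.960. *Lox* was most like *Dclk1* and *Ace* (0.959 and 0.95) and its r with the listed *Col1a1* was 0.962. *Pcolce* was most like *Medag* and *Fibin* (0.955 and 0.940), *Loxl3* like *Tlx2* and *Sfrp4* (0.916 and 0.883), and *Plod2* like *Wwtr1* and *Sdc2* (0.882 and 0.869). *Loxl1* was most like *Cyr61* and *Lamb2* (0.880 and 0.876), and *Loxl2*, with few UMIs, like *March11* and *Postn* (0.864 and 0.824). The likeness was weaker for *Plod1* (*Pik3r2* and *Il11ra1*, 0.822 and 0.804) and weakest for *P4ha1* (*Bsg* and *Laptm4a*, 0.760 and 0.735), whose r with *Col1a2* was 0.373.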

How the data were processed

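The authors made 10x Genomics 3′ libraries from viable sorted cells and aligned them to mm10 with Cell Ranger 2.0.2. The deposited values are UMI counts of each gene in every cell, not normalized, for 6 tumors, and 0 per-sample columns were left unused. A gene missing from a table was counted as 0. Cells needed 200 detected genes and no more than 25% mitochondrial UMIs. Each subtype's tumors were integrated in Seurat 5.3.0 in R 4.3.3 (2000 variable genes less the collagen genes, 30 dimensions, resolution 0.8), and 3 markers were required to name a cluster. Tumor clusters held under 0.25 of the *Smarcb1* UMIs expected (10 or more expected). A tumor's part with 5 or more expected had to meet this limit too, a check set after the data were seen. Scrublet in scanpy 1.11.5 marked 21 cells (0.0948%), a low share against the 0.8% per 1000 cells assumed. Its scores were not checked, and doublets stayed in. An alternative left out the 843 cells with the highest scores.

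UMIs were summed by tumor and kind of cell (10 or more cells) and scaled to CPM. Intervals are exact Poisson or binomial at 95%, a 0 allows up to 3 counts, and both cover counting error only. Tests used edgeR 4.0.16 (TMM, filterByExpr, quasi-likelihood, Benjamini-Hochberg at 0.05), with tumor as a block within tumors because both arms are from 1 animal. Standard errors were obtained as the log2 fold change over the square root of F. Hypoxia and phase scores used 10 bins and 20 control genes, and genes of a score stayed out of its test. Alternatives included DESeq2 1.42.0, and the fits were tested on simulated data. The members and lists were chosen with earlier results of these data known. Genes named are the members, the listed collagen processing and collagen genes, hypoxia score genes, *Smarcb1*, and for each member the 2 genes outside these lists of highest correlation among those with 500 or more UMIs. *Tyrobp* was added after its values were seen. Coordinates come from GENCODE for GRCm38, the build of mm10.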

Additional observations from a re-analysis of the deposited data

Results flagged for a closer look

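MYC spinal tumor 2 gave no tumor cells to the comparisons, and the signal there was outside them. At the finer clustering resolution of 1.6, 18 of its cells joined tumor clusters and held 532.7 CPM of *Serpinh1*, 85.24 CPM of *Lox*, 63.93 CPM of *Loxl3*, 170.5 CPM of *P4ha1* and 127.9 CPM of *Pcolce*. The other 5731 cells of spinal 2 held 0.155, 0.465, 0.155, 11 and 0.155 CPM. The counts behind the 18 cells are 25, 4, 3, 8 and 6 UMIs. These cells had 61 *Col1a2* UMIs (1300 CPM), and 9 UMIs of the myeloid gene *Tyrobp* (191.8 CPM), whose part in the values was not tested.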

How the results depend on the processing

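Subtype and hypoxia counts depended on the settings. DESeq2 called 85 genes between eRT and MYC spinal tumors and a fit of every gene with a UMI 10, where the main fit called 0, and leaving out 1 tumor gave 0 to 2. For the hypoxia score the main 3 calls became 0 without TMM factors, without a replicate block, with each tumor clustered alone, without the highest doublet scores, with the upper 50% of scores and, chosen after seeing the data, in G1 cells alone. They became 1 at resolution 1.6, with the highest 10% of scores and, also added later, without the *Smarcb1* check by tumor, 5 at resolution 0.4, 8 in DESeq2, 65 with every gene, and 0 to 6 leaving out 1 tumor. For cycling, 135 calls became 86 in DESeq2, 370 with every gene, 0 without the replicate block, 37 with the stricter cell filter, 63 with each tumor clustered alone, and 31 to 199 leaving out 1 tumor (31 without spinal 3 and 62 without eRT 3). Calls between tumor and other cells were 2017 to 2886 leaving out 1 tumor, against 2719, and 2419 without the replicate block. Causes were not tested.

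Of the members' log2 fold changes under alternatives, 412 kept sign and side of the threshold, 14 came to pass it, 3 no longer passed and 28 changed sign. Between subtypes *Loxl1* turned to 0.05 in DESeq2, 1.15 with mouse model as a term, 0.32 at a *Smarcb1* limit of 0.5, 0.09 without the highest doublet scores, and 0.32, 0.09 and 0.58 without spinal 3, eRT 2 and eRT 3 (-1.33 to 0.58 leaving out 1 tumor). *Plod1* turned to 1.82 without spinal 1 (-1.21 to 1.82), 0.13 at a limit of 0.15 and 0.04 without the check by tumor. *P4ha1* turned to -0.40 without eRT 1, -0.24 without spinal 1 (-0.40 to 1.29), -0.06 at resolution 1.6, -0.04 with the stricter filter and -0.00 at a limit of 0.15. With the hypoxia score, *Lox* turned to -0.03 with every gene, -0.10 without eRT 2 (-0.10 to 0.28), -0.02 without eRT 3 and at a limit of 0.15, -0.07 without the highest doublet scores, -0.26 with the upper 50% and -0.24 with the highest 10%. *Pcolce* turned to 0.14 without the replicate block, 0.03 without eRT 2 (-0.60 to 0.03), 0.12 without the highest doublet scores and 0.23 with the highest 10%. In cycling cells *Plod1* turned to 0.02 in DESeq2 and 0.08 without spinal 3 (-0.38 to 0.08). Leaving out spinal 2 equals the main fit, as it gave no tumor cells.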
